A study of Drosophila melanogaster with 12 samples.

Results

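The order in which DNA is replicated was compared between the wing imaginal disc and the salivary gland of the Drosophila larva. There were 4 libraries of genomic DNA, 2 from each tissue, of 12 in the whole series, and all 118985 windows on the 5 major arms (2L, 2R, 3L, 3R and X) were taken. Of these windows 114800 had a value in all 4 libraries. The salivary glands were dissected from about 20 female third-instar larvae of the Oregon-R strain before the wandering stage, and their replication timing (RT) was derived with TIGER, which reads timing from the sequence coverage of an unsorted tissue. The wing discs came from female third-instar larvae of the Yellow-white strain. Their RT was derived by the G1/S method, in which nuclei in S phase and in G1 are separated by flow sorting and both fractions are sequenced. Tissue, strain, library kit and profiling method differ together between the groups and cannot be told apart. Only DNA was sequenced, so the tissue labels could not be set against marker expression, and the salivary gland libraries were biological duplicates. Whether the wing disc libraries came from separate dissections is not given in the sources used here. The p-values rest on the spread between 2 libraries a group (n = 2), which in the disc may be technical. The tests also pool that spread across all bins or genes. An SE or p-value is thus only partly the replicate error of its own bin or gene. The deposited values are scores without read counts, so the depth of each library is unknown.

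In a dividing tissue such as the wing disc, which grows by mitosis and is patterned by morphogens and selector transcription factors, each cell copies its genome once per cycle, with open, gene-dense chromatin copied first and compact chromatin last. The larval salivary gland secretes the glue that fixes the animal at pupariation. Its cells have left mitosis and repeat S phase without division, which gives polytene chromosomes. In these cells some of the latest domains are never finished and are left at reduced copy number, a state called underreplication (UR), which depends on the SuUR and Rif1 proteins. A low coverage value in the salivary gland is thus late replication, low copy number or both.

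Because the scores of the tissues were made by different methods, windows were ranked within each library, from percentile 0 for the latest to 100 for the earliest. Percentiles were taken of rawRT, the deposited score of single windows, and of the smoothed RT profile that was deposited with it. Both are given because single wing disc windows vary more around their neighbourhood. Over bins of 50 windows, the SD of the mean rawRT percentile was 22.02 and 22.6 for the salivary gland and 10.6 and 11.2 for the wing disc, so rawRT percentiles draw the wing disc toward the middle. With smoothed percentiles these SDs were 28.5 and 28.5 in the salivary gland and 28.4 and 28.4 in the wing disc. In what follows "smoothed percentile" is the level used for description, and the rawRT percentile is the main scale of the tests.

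The base composition of the domains that differed between the tissues is shown first, because it differed with the direction of the difference. Rank in the gland itself rose with G+C content, so composition and direction are not independent. Each stretch below has 120 bases from the plus strand of the Release 6 assembly (RefSeq, the dm6 build of the files), with G and C in capitals, and was taken from the window whose G+C content lay nearest that of its domain, so it illustrates the composition and is no evidence for it. The files round coordinates to 5 significant digits, so a stretch shows its domain and marks no boundary. The first pair comes from the longest named domains, which lie outside salivary gland UR, that ranked later in the wing disc, at bands 1E to 2F of X (chrX:1212200-1212319) and 62B to 62F of 3L (chr3L:2301040-2301159). The second pair comes from the longest domains outside UR that ranked earlier in the wing disc, at 67D to 67E (chr3L:10293280-10293399) and 70D to 70E (chr3L:14482400-14482519).
X 1E to 2F, later in the wing disc: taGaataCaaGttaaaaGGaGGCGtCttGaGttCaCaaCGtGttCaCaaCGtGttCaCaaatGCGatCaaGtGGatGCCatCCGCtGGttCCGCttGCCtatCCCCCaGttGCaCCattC
3L 62B to 62F, later in the wing disc: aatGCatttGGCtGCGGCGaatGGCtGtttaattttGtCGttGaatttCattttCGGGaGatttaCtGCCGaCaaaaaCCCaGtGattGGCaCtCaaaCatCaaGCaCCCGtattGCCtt
3L 67D to 67E, earlier in the wing disc: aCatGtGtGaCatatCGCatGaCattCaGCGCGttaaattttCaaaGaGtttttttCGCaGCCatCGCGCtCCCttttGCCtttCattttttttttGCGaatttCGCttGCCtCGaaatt
3L 70D to 70E, earlier in the wing disc: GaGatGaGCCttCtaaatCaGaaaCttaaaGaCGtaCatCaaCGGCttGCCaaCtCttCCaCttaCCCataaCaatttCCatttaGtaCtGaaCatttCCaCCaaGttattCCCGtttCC
The 4 stretches hold 58, 52, 48 and 48 G or C bases, and their domains have G+C contents of 48.4%, 43.7%, 39.8% and 38.9%.

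The wing disc and the salivary gland shared much of their latest DNA, a large part of it in salivary gland UR, and differed over much of the rest. Smoothed RT had Spearman's rho of 0.470 to 0.487 between a library of one tissue and a library of the other, against 0.974 between the salivary gland libraries and 0.954 between the wing disc libraries, across 114798 windows that are not independent. For the mean rawRT of bins the values between tissues were 0.441 to 0.467, and over the 2105 bins that lay mainly outside salivary gland UR they fell to 0.284 to 0.318, with replicates at 0.949 and 0.884. Windows were then divided into quartiles from Q1, the earliest, to Q4, the latest. A library of one tissue and a library of the other placed 39.8% to 40.2% of windows in the same quartile of smoothed RT, against 82.6% and 76.7% for the replicate pairs. On rawRT of single windows the shares were 29.2% to 29.8% between the tissues and 54.4% and 44.7% between replicates.

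Both libraries of each tissue agreed on the smoothed quartile of 73053 windows, or 63.6%, and the quartile plot shows how these windows moved. Of the 23275 windows in Q4 of the salivary gland, 16680 were also in Q4 of the wing disc, or 71.7%, and 2062 were in its Q1, or 8.86%. Of the 17924 windows in Q1 of the salivary gland, 7767 remained in Q1 of the wing disc, or 43.3%, and 752 were in its Q4, or 4.20%. Salivary gland Q2 and Q3 were spread over all quartiles of the wing disc, with 29.8% and 27.6% in the same quartile.

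**Figure D1:**
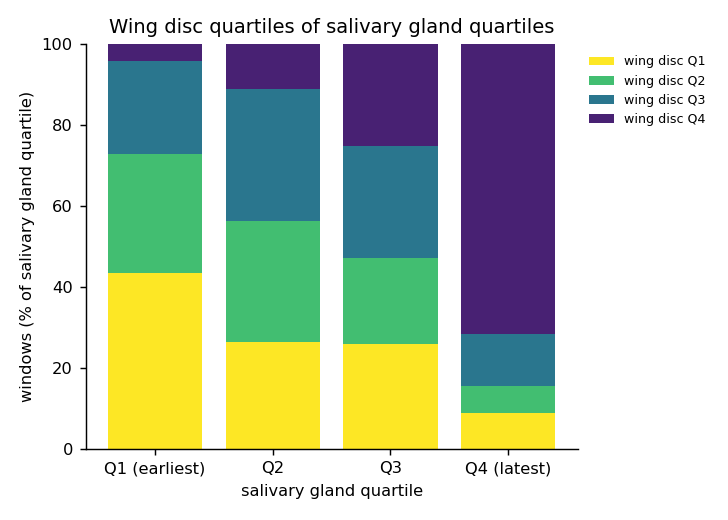
Share of the windows of each salivary gland quartile of smoothed RT (x axis) that fell in each wing disc quartile (colours, % on the y axis), for the 73053 windows on whose quartile both libraries of each tissue agreed. The latest salivary gland quartile kept 71.7% of its windows in the latest wing disc quartile, the highest share on the diagonal.

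Tested bin by bin, most bins were called different in rank on each scale alone, but fewer were called in the same direction on both. limma called 1707 of 2352 bins on the rawRT percentile at a Benjamini-Hochberg adjusted p below 0.05, or 72.6%, with 794 bins ranked higher (earlier) in the wing disc and 913 lower. These shares, 33.8% and 38.8%, are the background for counts of bins called on the rawRT percentile. On smoothed percentiles 1372 bins were called, or 58.3%, with 635 higher (27%) and 737 lower (31.3%). Both scales called the same direction in 1051 bins, or 44.7%, with 437 higher and 614 lower in the wing disc, and opposite directions in 34. Smoothed levels are therefore given beside most called directions.

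**Figure D2:**
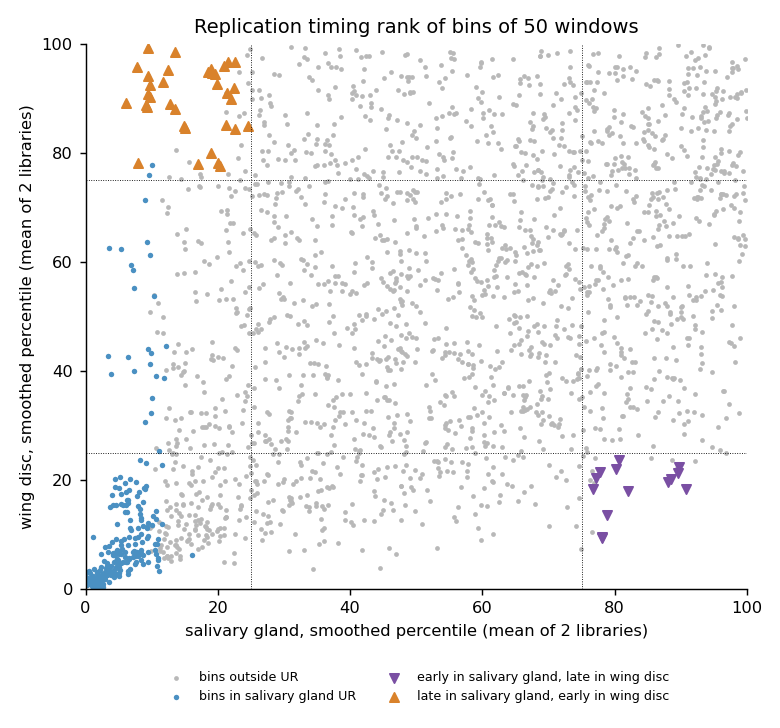
Each point is a bin of 50 windows, placed by its mean smoothed percentile in the 2 salivary gland libraries (x axis) and in the 2 wing disc libraries (y axis), where 0 is latest and 100 earliest. Bins in salivary gland UR (blue) gather at the late end of both tissues, and the 14 and 35 bins at opposite ends of the ranks are marked by triangles.

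Adjacent called bins of one direction were merged into 204 domains that ranked earlier in the wing disc (median 109 kb) and 283 that ranked later (median 107 kb). Of the earlier domains 168 had less than 0.1 of their windows in salivary gland UR, and of the later domains all 283. The count for later domains was largely fixed in advance. UR was called from low gland values and can hardly rank lower in the disc. The longest earlier domain of all spanned 5823 kb and had at least 0.1 of its windows in UR. On the rawRT percentile 794 bins were called higher, but only 552 when the 2105 bins outside UR were fitted alone. The lower calls were 913 and 914. In the UR regions described below, the median window stood at smoothed percentile 6.13 and 6.11 in the gland and 7.89 and 7.87 in the disc. Earlier calls in UR thus mostly concern DNA that was late in both tissues. The longest later domain outside UR spanned X from 1168200 to 2272200, bands 1E to 2F, with 145 protein-coding genes. This gene-rich stretch holds br, which encodes the Broad transcription factors of the early ecdysone response. Its smoothed percentile was 92.4 and 95.8 in the gland and 76.8 and 75.1 in the disc, so it was among the earliest DNA in the gland and still early in the disc. The difference in mean rawRT percentile was -23.3, called in each of its 21 bins with an adjusted p of at most 0.00845.

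The next longest later domains, by smoothed percentile, lost more rank than this, while their differences in rawRT percentile, -19.9 to -23.0, were slightly smaller. On 3L from 1945100 to 2768300, bands 62B to 62F, the smoothed percentile was 72.0 and 77.9 in the salivary gland and 28.1 and 30.8 in the wing disc. On 3R from 22557000 to 23161000, bands 94B to 94E, it was 74.9 and 72.3 against 29.7 and 34.8, and the 85 genes there include hh, the segment polarity morphogen, at its edge. On 3R from 5214200 to 5934700, bands 82F to 83C, with 120 genes, the levels were 85.6 and 85.5 in the gland and 54.4 and 52.0 in the disc. On 3L from 438390 to 1112700, bands 61C to 61E, they were 87.2 and 89.3 against 62.8 and 62.5. In each of these 4 domains the groups were far apart relative to the gap between replicates. The domains were built from called bins, so this follows in part from the choice. Of the domains with the largest differences in this direction, 2L from 786880 to 1260300 (21E to 21F) went from 90.4 and 91.5 to 36.4 and 37.9, and its mean rawRT percentile was 31.5 points lower in the disc.

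Another 2 of the domains with the largest loss of rank stayed in the earlier part of the wing disc profile. On 2L from 161740 to 311820, band 21B, the gland stood at 98.9 in both libraries and the disc at 75.1 and 69.99. This domain contains smo, which encodes the Hedgehog signal transducer Smoothened. The single bin on 3L from 15496000 to 15546000, bands 71D to 71E, was at 94.3 and 91.1 in the gland and at 69.7 and 85.0 in the disc, and it was not called on smoothed percentiles.

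Of the domains that ranked earlier in the wing disc, the clearest change from late to early lay on the third chromosome. On 3R from 21582000 to 21991000, bands 93E to 93F, the smoothed percentile was 33.8 and 33.6 in the salivary gland and 92.3 and 95.0 in the wing disc. This stretch carries E2f1, the activator of S-phase genes, and PolA1, the catalytic subunit of DNA polymerase alpha. On 3L from 10669000 to 11069000, bands 67E to 68A, the levels were 29.1 and 26.6 in the gland against 87.2 and 91.1 in the disc. SuUR lies at its proximal end but was not late in the gland, at 61.6 and 63.8 against 86.2 and 77.0 in the disc. The direction of its difference turned with the scale, as given below. All 8 bins of each domain were called on the smoothed scale too. On 3L from 14108000 to 14627000, bands 70D to 70E, the gland stood at 20.9 and 23.9 and the disc at 61.4 and 56.3. The genes there include fz, which encodes a Wingless receptor, and the Sox genes D, Sox21a and Sox21b. On X from 8425800 to 8880900, bands 7E to 8B, the levels were 26.03 and 27.4 against 64.8 and 61.2.

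The longest of the earlier domains with less than 0.1 of its windows in UR, 3L from 10009000 to 10619000 at 67D to 67E, remained late in both tissues, at 17.6 and 17.2 in the gland and 29.1 and 27.0 in the disc. Only 5 of its 12 bins were called on the smoothed scale. The largest differences belonged to shorter domains. On 3L from 6770900 to 6934500, bands 65C to 65D, which holds vvl, a POU domain transcription factor, the gland was at 22.1 and 18.9 and the disc at 82.5 and 78.3. On 2L from 12753000 to 12973000, bands 33F to 34A, with kek1, an inhibitor of the EGF receptor, it was at 16.8 and 14.2 against 70.2 and 71.7. The domain on X from 14039000 to 14168000, bands 12D to 12E, was 39.3 points higher in rawRT percentile in the disc, with smoothed levels of 13.04 and 12.4 against 71.6 and 57.6. It holds the tandem, near-identical Stellate genes, so its values are uncertain.

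The full switches, bins above percentile 75 in both libraries of one tissue and below 25 in both libraries of the other, were few and are given without a test, since the ranks of both tissues chose them. There were 14 bins that were early in the salivary gland and late in the wing disc, or 0.595% of all bins, in 12 places, and 35 that were late in the gland and early in the disc, or 1.49%, in 20 places. For comparison, 330 bins were below 25 in all 4 libraries, 212 of them mainly in salivary gland UR, and 151 were above 75. The genes named in the rest of this paragraph were chosen after their values were seen. Among the bins late in the gland and early in the disc were those with the transcription factor genes Antp at 84A, salm and salr at 32E, hth at 86C, esg and wor at 35D, ovo at 4E and vvl at 65C. Others held the membrane protein genes ed at 24D, kirre at 3B, kek1 at 34A, trn at 70A and Tollo at 71B. No count over a list was made for these bins. These bins were gene-poor, with a median of 1 protein-coding gene a bin against 5 over all bins. The 330 bins below 25 in all 4 libraries also had a median of 1, and the 151 above 75 had 7. A low gene number was thus shared with late bins that did not switch. Of the 35 bins, 9 lay mainly in salivary gland UR. The opposite bins had a median of 5 genes. None lay in UR, which the choice fixed in advance. UR was called from low salivary gland values, and these bins were chosen as early in the gland. They included a cluster of Twdl cuticle protein genes with beat-VII at 97C, the p53 gene with sav at 94D, Dys, the dystrophin gene, at 92A and yellow-g with yellow-g2 at 62D.

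The other tissues of the series were read at the same bins as a description. These were salivary glands of SuUR and of Rif1 mutant larvae, the latter carrying the alleles Rif1 1 and Rif1 2, the Oregon-R larval fat body, all from female third-instar larvae, and Oregon-R follicle cells of the adult ovary, each with 2 libraries. Bins are called late or early here where both libraries were below 25 or above 75. Of the 35 bins late in the salivary gland and early in the wing disc, 25 had values in the fat body, where 15 were late and 0 early. In follicle cells, profiled by the same sorting method as the wing disc, 6 of the 35 bins were late and 8 early, with a median smoothed percentile of 53.1. In the SuUR mutant salivary gland 18 of 34 valued bins were late and 0 early. In the Rif1 mutant gland 8 of 35 were late and 11 early. Of the 14 bins that were early in the gland and late in the disc, follicle cells had 6 late and 0 early, and the fat body had 1 late and 2 early.

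Salivary gland UR was called from the salivary gland libraries alone, as runs of at least 50 kb with a running median of rawRT below -2.85, and gave 46 regions of 51.0 to 2287 kb after the long runs of pericentric heterochromatin (PH) at the arm ends were set apart. They are called eUR here, but 15 of them, up to the longest, still lie in the cytological divisions next to the centromeres. The other 31 span 51.0 to 420.0 kb. The wing disc values took no part in that choice. Of the 46 regions, 33 were also late in the wing disc, with both libraries below smoothed percentile 25, and 18 of these were below percentile 10 in both. Of the 31 regions away from the centromeres 20 were below 25, 11 of them below 10, while 5 were between and 6 above 50 in both libraries. Of the 15 pericentric ones 13 were below 25. The median region stood at 11.3 and 11.6 in the disc, against 7.42 and 7.07 in the gland, and the median of the 31 regions at 12.02 and 13.8 against 8.37 and 8.03. By windows, 82.4% and 81.8% of eUR fell in Q4 of the wing disc libraries and 6.05% and 5.61% in Q1. Over the 31 regions away from the centromeres the Q4 shares were 74.9% and 73.1% and the Q1 shares 10.1% and 10.5%. In PH 98.2% and 98.3% were in Q4. The other libraries had 84.3% and 84.4% of eUR windows in Q4 in the SuUR mutant gland, 41.1% and 48.6% in the Rif1 mutant gland, 95.2% and 99.7% in the fat body and 71.9% and 69.6% in follicle cells. When eUR was called from a single salivary gland library, its windows had a median smoothed percentile of 6.20 or 6.23 in the other gland library, and of 7.88 to 8.66 in the wing disc libraries.

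The well-known UR sites of polytene chromosomes were mostly late in the dividing cells as well. The region at 67D was at 4.85 and 3.78 in the wing disc, 64C at 6.74 and 7.60, 70B to 70C at 7.17 and 5.66 and 35B at 8.65 and 10.6. The 11A region stood at 17.3 and 17.4. The region at 89D to 89E, which holds the Bithorax complex of Hox genes, was at 20.04 and 21.04 in the disc and at 7.11 and 6.67 in the gland. Less late still were 36D, at 19.6 and 28.0, and 25A, at 39.4 and 28.4. The only one of these classical sites above the middle of the wing disc ranks was 75C, at 76.2 and 64.2 against 7.52 and 6.9999 in the gland. No region was called at 84A, where the nearest called region, at 83F, was at 8.14 and 7.78.

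The 75C region was 1 of 6 eUR regions with both wing disc libraries above percentile 50, and the other 5 were chosen after their values were seen. It lies on 3L from 18204000 to 18446000 and holds rpr, grim and skl, which encode activators of apoptosis, while their neighbour hid lies just distal to it in a bin that was early in the disc and late in the gland. The region on X from 2984500 to 3117400, at 3B to 3C, has kirre, an immunoglobulin superfamily gene of cell adhesion, and stood at 94.1 and 90.6 in the wing disc against 8.58 and 8.71 in the gland. At 35D on 2L from 15354000 to 15486000 the levels were 84.6 and 89.3 against 9.99 and 8.97. The region at 65A to 65B with the receptor genes Or65a, Or65b and Or65c was at 94.8 and 88.6 against 10.7 and 9.90. At 86C, inside hth, which encodes a homeodomain factor of the wing hinge, the disc stood at 64.6 and 74.1 and the gland at 9.91 and 9.19. The last, at 94A, was at 64.6 and 60.3 against 9.65 and 9.20. By the choice the tissues cannot overlap in these regions. Their median rawRT was -3.03 and -3.83 in the gland libraries and 0.296 and 0.292 in the disc libraries.

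None of these 6 regions is pericentric, and they were set beside the 20 other regions away from the centromeres that were late in the disc and the 5 between. Their median G+C content was 41.99% against 41.04% in the 20 and 39.6% in the 5, with ranges that overlap. They had 2.75 protein-coding genes per 100 kb against 4.91 and 3.01, and a median length of 123 kb against 189 kb and 205.0 kb. In the fat body their median smoothed percentiles were low, at 8.73 and 8.48, as were those of the 20 regions, at 9.503 and 6.71. The region at 86C was not late there, at 32.2 in replicate 1, and had no value in replicate 2. Several of the 20 regions also lacked a value in replicate 2, so its medians rest on fewer regions. In the SuUR mutant gland the 6 regions stood at 20.2 and 15.9 against 15.2 and 15.4 for the 20. In the Rif1 mutant gland they stood at 57.4 and 52.5 against 63.6 and 68.4. In follicle cells the medians were 23.7 and 29.1 against 10.2 and 11.9. No test was run on these differences, since the wing disc values that form the groups also chose the 6 regions.

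**Figure D3:**
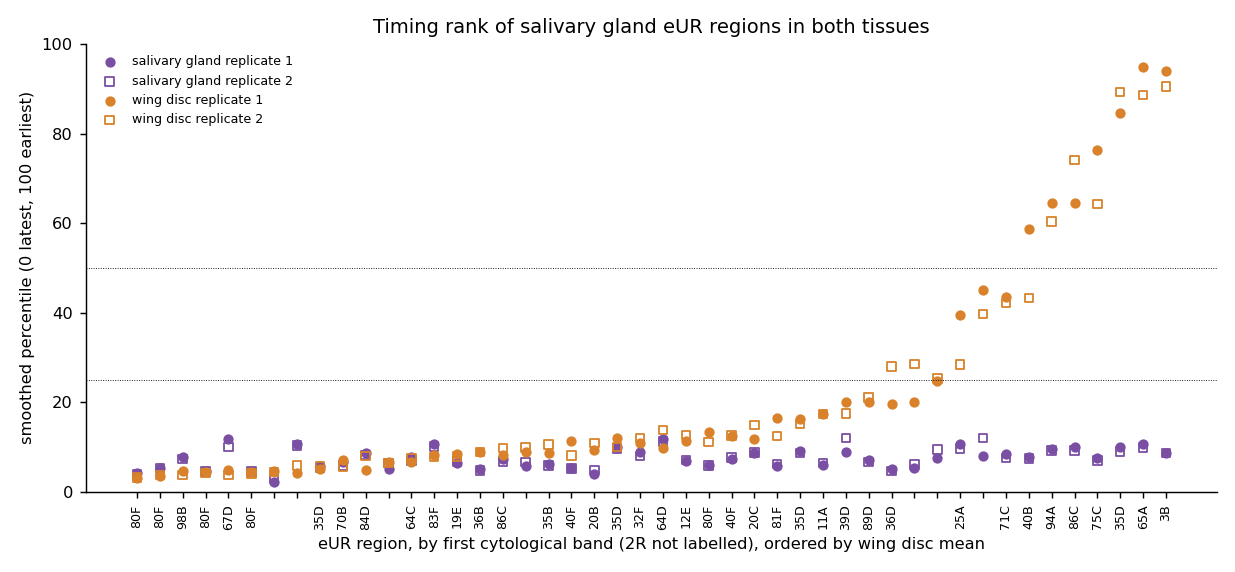
Smoothed percentile (y axis) of the 46 eUR regions in each library, filled circles for replicate 1 and open squares for replicate 2, ordered by the wing disc mean and labelled by their first cytological band. All salivary gland points lie below 13, because low salivary gland values chose the regions, and 6 regions on the right rise above 50 in both wing disc libraries.

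Genes were given the mean percentile of the windows over the gene and 10 kb on each side. limma called 10691 of 17169 genes on the rawRT percentile, with 3080 (17.9%) ranked earlier in the wing disc and 7611 (44.3%) later, or 62.3% in all. On smoothed percentiles it called 10149 genes (59.1%), 4150 (24.2%) earlier and 5999 (34.9%) later. The share of calls in the earlier direction thus moved from 28.8% to 40.9% with the scale. The gene lists below were chosen with earlier results of these data known, so their counts are descriptions beside those shares. The flanks matter for single genes. On the windows of the gene body alone 22.5% of 16734 genes were called, and 22 of the 51 genes named by the rule lost their call (adjusted p = 0.0515 to 0.979). These were toe, hh, ct, Dfd, Ubx, fkh, Eip93F, Blimp-1, ftz-f1, PolA1, E2f1, Mcm3, Psf3, beat-Ic, dpr3, dpr20, RpL5, RpL10, RpL21, RpL35A, RpL37A and Or94b.

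Genes that pattern the wing disc tended to rank earlier in the disc than in the gland. Of 49 such genes tested, 19 were called earlier and 8 later on the rawRT percentile, 38.8% and 16.3%, and 28 earlier and 2 later on the smoothed percentile, 57.1% and 4.08%. Their median smoothed percentile was 48.0 and 47.7 in the gland libraries and 77.8 and 77.7 in the disc libraries, whereas over all genes the medians were 60.8 and 61.6 against 57.0 and 57.4. For hth the gland stood at 11.3 and 10.3 and the disc at 72.1 and 79.5, a difference in rawRT percentile of 46.2 ± 3.84 (SE, adjusted p = 9.08e-08). The zinc finger gene salm, a target of Dpp signalling in the wing blade, was at 22.6 and 19.3 in the gland and 85.0 and 94.6 in the disc (43.0 ± 4.09, adjusted p = 3.04e-07). For tsh, a zinc finger gene of the proximal wing, the levels were 12.5 and 11.7 against 77.8 and 74.0. For nub, a POU domain gene of the wing pouch, they were 25.1 and 24.5 against 84.8 and 95.2. In each of these 4 genes both disc libraries were above both gland libraries by far more than the gap between replicates. For hth, salm and tsh this follows in part from the choice. They were named for the largest called differences of the list in these same libraries.

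The proneural genes ac and sc and the salm neighbour salr, named after their values were seen, had the same pattern. For ac the gland was at 17.7 and 28.1 and the disc at 89.98 and 86.8, and for salr the gland was at 20.3 and 18.6 and the disc at 93.4 and 96.1. The morphogen genes differed less. The smoothed percentile of wg was 68.7 and 64.8 in the gland and 93.4 and 90.9 in the disc, and that of dpp was 52.6 and 57.7 against 81.9 and 85.2, called on the smoothed scale (adjusted p = 0.00306 and 0.00256) but not on the rawRT scale (adjusted p = 0.346 and 0.674). The morphogen gene hh was at 79.2 and 75.2 in the gland and 67.5 and 85.2 in the disc, where the tissues overlap, although its rawRT percentile was called 16.8 lower in the disc. The transcription factor gene ct overlapped as well, at 80.3 and 68.5 against 85.0 and 64.1. Of the 2 genes called later in the disc on the smoothed scale, toe, a Pax family gene, was called on both scales, at 94.5 and 91.2 against 75.3 and 68.9 (adjusted p = 4.32e-05).

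The 8 Hox genes, which set segment identity, were all called earlier in the wing disc on both scales, but by unequal amounts. They lie in the Antennapedia and Bithorax complexes, so neighbours share part of their surroundings. The list was late in the gland, with median smoothed percentiles of 16.2 and 16.0. Whether other genes as late in the gland were called earlier as often was not tested. Antp, the Hox gene of the segment that bears the wing, moved most, from 14.1 and 12.3 in the gland to 91.1 and 96.8 in the disc (rawRT percentile 47.4 ± 3.87 higher, adjusted p = 7.89e-08). Scr and Dfd followed, at 17.4 and 17.7 against 67.8 and 84.1 for Scr and 17.2 and 17.5 against 64.5 and 84.1 for Dfd. Scr, which also specifies the salivary gland in the embryo, was late in the larval gland. The Bithorax genes stayed in the later part of the disc profile. Ubx stood at 15.3 and 14.4 in the gland and 26.5 and 34.2 in the disc, Abd-B at 11.7 and 11.8 against 37.8 and 45.7, and abd-A at 5.66 and 5.21 against 17.6 and 15.9. For abd-A the called difference in rawRT percentile was 34.4, from 6.30 and 5.77 in the gland to 39.3 and 41.4 in the disc. Its smoothed levels, in contrast, stayed within the latest quartile in both tissues.

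**Figure D4:**
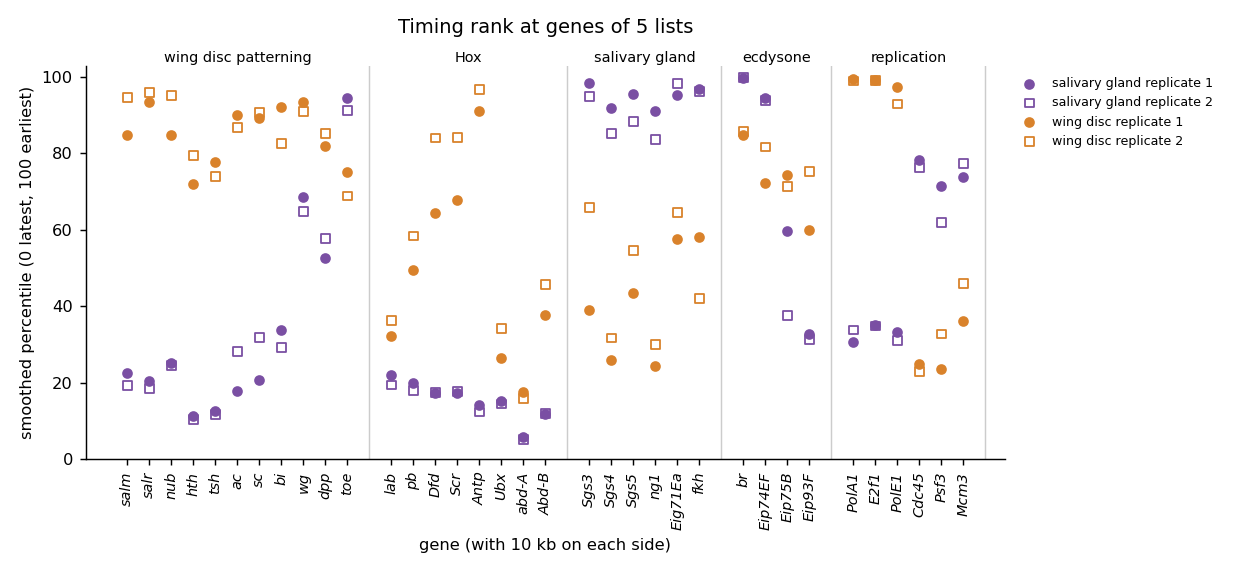
Smoothed percentile (y axis) of 35 genes of 5 lists in each library, filled circles for replicate 1 and open squares for replicate 2. The genes salm, hth and Antp sit near the bottom in the salivary gland and in the upper part in the wing disc, while Ubx and abd-A stay in the later part of both. Sgs3 and Sgs4 sit high in the gland and in the middle or lower part in the disc.

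Salivary gland products and regulators ranked later in the wing disc. Of 33 genes, 26 were called later and 1 earlier on the rawRT percentile, 78.8% and 3.03%, and 27 later and 2 earlier on the smoothed percentile. The 33 genes lie in 18 segments of 50 kb, and the Eig71E cluster, the ng genes with Sgs4 and the Sgs3, Sgs7 and Sgs8 genes each count as one place. The median smoothed percentile was 94.6 and 92.8 in the gland and 57.7 and 64.7 in the disc, so it went from among the earliest to the middle of the profile. It was taken over genes, so places with many genes weigh more. The list was far earlier in the gland than all genes, whose medians there were 60.8 and 61.6. Whether other genes as early in the gland were called later as often was not tested. The glue gene Sgs3 at 68C stood at 98.3 and 94.9 in the gland and 39.0 and 66.0 in the disc, and its rawRT percentile was 44.9 lower in the disc (SE 4.23, adjusted p = 2.83e-07). Sgs7 and Sgs8, which share nearly all of its windows, had rawRT percentiles 43.6 and 44.1 lower. Sgs4 at 3C fell lowest, from 91.8 and 85.3 to 25.9 and 31.7 (adjusted p = 1.83e-06). For fkh, which encodes the forkhead factor that activates glue genes, the levels were 96.9 and 96.1 against 58.2 and 42.0. Its rawRT percentile was 30.1 lower in the disc (adjusted p = 1.82e-05), and 13.4 lower on the gene body alone (adjusted p = 0.164). The 2 genes called earlier in the disc on the smoothed scale were Scr, also counted with the Hox genes, and sage, whose rawRT percentile was called lower.

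Ecdysone response genes were called at about the share of all genes. Of 18 genes, 3 were called earlier and 8 later in the disc on the rawRT percentile (16.7% and 44.4%), and 6 earlier and 5 later on the smoothed percentile (33.3% and 27.8%). Of the genes of the classical early puffs, br and Eip74EF were extremely early in the gland. The smoothed percentile of br was 99.9 in both gland libraries and 84.8 and 85.8 in the disc (rawRT percentile 30.0 lower, adjusted p = 4.67e-06). Eip74EF stood at 94.6 and 94.0 in the gland and 72.3 and 81.7 in the disc (23.7 lower, adjusted p = 4.39e-05). Eip75B, another of these puff genes, lies distal to the 75C UR region and went the other way, at 59.7 and 37.6 in the gland and 74.5 and 71.4 in the disc, a difference called only on the smoothed scale (adjusted p = 0.0423 against 0.536). Eip93F, which encodes a factor of the later response, was at 32.8 and 31.3 against 59.9 and 75.4. Blimp-1 and ftz-f1 were 10.7 and 9.54 higher in rawRT percentile, but Blimp-1 lost its call without salivary gland replicate 2 (adjusted p = 0.0997) or wing disc replicate 2 (0.184), and ftz-f1 lost it without any 1 of the 4 libraries (0.0654 to 0.152). With the trend of G+C content removed ftz-f1 was only 1.54 higher (0.735). MsrA was 30.0 lower in rawRT percentile but was not called on the smoothed scale (17.5 lower, adjusted p = 0.0548).

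Replication and cell cycle genes were also called near the share of all genes on the rawRT percentile, with 8 of 44 earlier and 21 later in the disc (18.2% and 47.7%), and 15 earlier and 14 later on the smoothed percentile (34.1% and 31.8%). PolA1 stood at 30.7 and 33.8 in the gland and at 99.5 and 98.997 in the disc, and its neighbour E2f1 at 35.1 and 34.8 against 99.4 and 99.04, which made this locus one of the earliest in the disc. CycE, the G1/S cyclin gene, remained late in both, at 16.2 and 15.8 against 23.8 and 21.4, between the UR regions of 35D. In the opposite direction, Cdc45, which encodes a part of the replicative helicase, was at 78.2 and 76.4 in the gland and 24.9 and 22.9 in the disc (rawRT percentile 27.8 lower, adjusted p = 1.22e-05). Psf3, of the GINS complex of the same helicase, was at 71.5 and 61.9 against 23.5 and 32.7, and Mcm3 at 74.0 and 77.4 against 36.2 and 45.9. SuUR turned with the scale, as its rawRT percentile was 19.1 lower in the disc and its smoothed percentile 18.9 higher, at 61.6 and 63.8 in the gland and 86.2 and 77.0 in the disc.

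Of 91 cytosolic ribosomal protein genes, 9 were called earlier and 51 later in the disc on the rawRT percentile (9.89% and 56.0%), and 20 and 36 on the smoothed percentile (21.98% and 39.6%). The most distal of the named ones, RpL36, went from 96.3 and 95.6 to 68.3 and 77.0, and RpL37A from 99.5 and 99.4 to 59.7 and 71.4. RpL21 and RpL5, near the centromere of 2L, ranked 28.3 and 23.7 higher in the disc on rawRT but stayed below smoothed percentile 36 in every library. Of 120 odorant and gustatory receptor genes, 34 were called earlier and 42 later, and 27 and 54 on the smoothed scale. The extremes were Or65c, at 12.5 and 11.4 in the gland and 94.8 and 85.0 in the disc, and Or94b, at 79.0 and 77.5 against 7.83 and 7.06. Of 34 dpr and beat genes, which encode neuronal cell surface proteins, 15 were called earlier and 7 later on the rawRT percentile (44.1% and 20.6%) but 3 earlier and 13 later on the smoothed one (8.82% and 38.2%). The list had no settled direction, and its median smoothed percentile was low in both tissues, at 21.97 and 21.4 in the gland and 11.8 and 13.7 in the disc. Its clearest member was beat-VII, from 75.9 and 79.7 in the gland to 10.5 and 9.32 in the disc.

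Base composition moved with these differences. Across the 2352 bins Spearman's rho between G+C content and the smoothed percentile was 0.550 and 0.594 for the salivary gland but 0.245 and 0.252 for the wing disc, and for the number of protein-coding genes a bin it was 0.436 and 0.479 against 0.280 and 0.290. Bins share their library and neighbours, so no p is given. The salivary gland coverage had been corrected for G+C content before deposit. The 8 named domains later in the disc had 40.7% to 48.4% G+C and the 8 named domains earlier in the disc had 38.9% to 41.8%. All the former lay above the middle of the gland ranks and all the latter below it. Their contrast in G+C content therefore cannot be told apart from the rise of gland rank with G+C content. When the trend of rawRT with G+C content was removed from each library before ranking, 1664 bins were called, 752 earlier (32%) and 912 later (38.8%) in the disc. Of all genes 55.7% were then called, 16.9% earlier and 38.9% later in the disc, and the wing disc patterning list had 18 genes earlier and 7 later, the Hox list 8 and 0, and the salivary gland list 1 and 26. The part of base composition in the differences themselves was not tested.

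**Figure D5:**
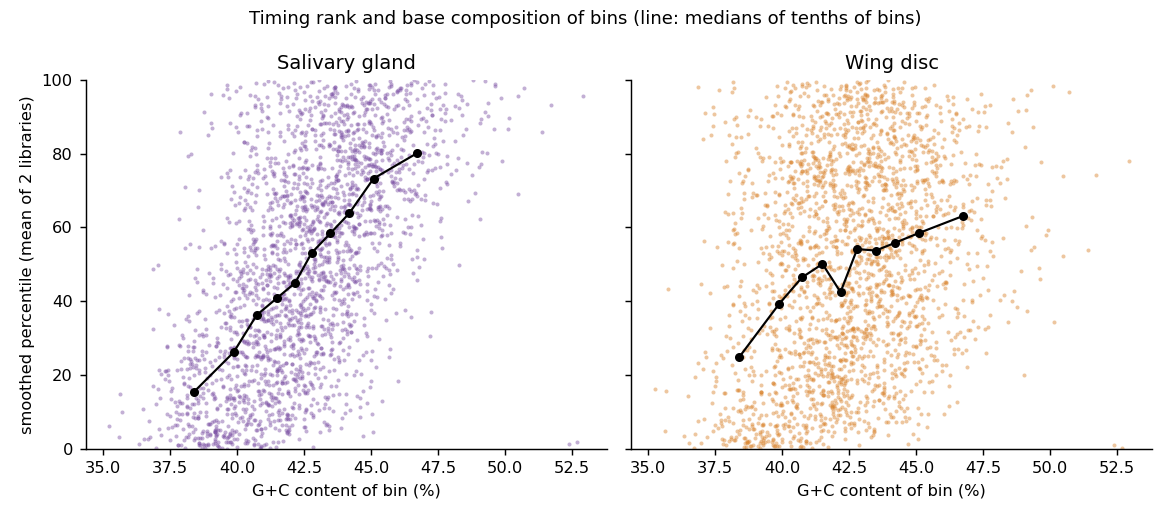
Mean smoothed percentile of each bin of 50 windows (y axis) against its G+C content (x axis, %), with medians of 10 classes of equal size as a line, for the salivary gland on the left and the wing disc on the right. The rise with G+C content is steeper in the salivary gland, where Spearman's rho was 0.550 and 0.594, than in the wing disc, where it was 0.245 and 0.252.

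Position along the arm differed as well. In the 88 bins within 1 Mb of the distal ends the median smoothed percentile was 87.7 and 92.2 in the gland and 77.1 and 74.0 in the disc, and 39 bins were called later and 11 earlier in the disc on the smoothed scale. In the 317 bins within 5 Mb of the centromeres both tissues were late, at 11.3 and 13.4 in the gland and 12.96 and 13.2 in the disc, with 45 bins later and 63 earlier. Over all 2352 bins the shares called on the smoothed scale were 31.3% later and 27% earlier. Near the centromeres calls were rarer than that in both directions. By arm, the median difference in smoothed percentile ranged from -3.15 on 2R to 2.95 on 2L, and X, for which all larvae were female, was at -0.41. The smoothed salivary gland profiles had been scaled for each chromosome before deposit, which limits differences between arms. These medians therefore do not measure how whole arms differ.

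On the scale of the deposited score the balance of calls was different. limma on mean rawRT called 1362 bins, or 57.9%, with 893 (38%) higher and 469 (19.9%) lower in the disc, so 65.6% of calls were higher. Quantile normalization of the 4 libraries turned that balance, with 577 calls higher (36.3%) and 1013 lower. Without wing disc replicate 1 the calls dropped to 572 and without wing disc replicate 2 to 577, with 84.6% and 83.9% of them higher. The score and rank tests shared 1261 calls, and all 1261 had the same direction. The rule of the study, an analysis of variance over windows with a Bonferroni adjusted p below 0.01 and regions over 200 kb, marked 578 of 2382 bins (24.3%) in 69 regions. Of these bins 243 lay mainly in salivary gland UR, and of those outside it the disc had the higher score in 251 and the lower in 84. Windows of 1 library are not replicates, so this count has no replicate error.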

How the data were processed

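The deposited rawRT and smoothed RT values are scores. For the salivary gland reads were aligned by the authors with BWA 0.7.17 (dm6). Unique reads were counted per window of 1000 alignable bp, adjusted for base composition, freed of outliers and scaled to mean 0 and SD 1 outside UR. The smoothed profiles were then scaled to mean 0 and SD 1 for each chromosome. How the wing disc scores were made is not given in the sources used here. Depth is unknown.

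Windows valued in all 4 libraries were ranked within library. Bins of 50 windows (at least 25 valued) and genes with 10 kb on each side (at least 5 windows) were tested with limma 3.58.1 (lmFit, eBayes; R 4.3.3) without a block, Benjamini-Hochberg adjusted. eUR was called from mean salivary gland rawRT, with a running median of 21 windows, 1 SD below the mean, gaps under 10 windows merged and at least 50 kb. Genes and bands came from RefSeq Release 6. Named were, by rule, the 5 longest domains and those with the 3 largest differences in each direction with less than 0.1 of windows in UR, set UR bands, the 3 genes of each list with the largest called differences in each direction, and 13 set genes. Regions and genes on 2R stayed in all fits but are not named. The members and lists were chosen with earlier results of these data known. One gene of 50 on the wing disc list was not matched to a unique symbol.

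Tested on simulated data, limma found 86.5% of 200 bins shifted by 20 percentile points with 5 false calls among 2352 bins, and 90% of 200 bins shifted by 1.5 in rawRT with 10 false calls. For genes it found 91.5% of 200 shifted by 50 points and 0% at 20 points, with 4 and 0 false calls among 17169 genes. Apart from the shifts, the simulated tissues had the same mean and spread. The narrower spread of wing disc rawRT percentiles was not simulated, so false calls from it are not measured. The exact permutation test of 2 against 2 libraries cannot go below p = 0.333 and was not used. Alternatives covered the rank scale, bin size, filters, flank, UR threshold, quartile universe, block, GC content and each library left out.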

Additional observations from a re-analysis of the deposited data

How the results depend on the processing

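The shares of rank bins called stayed within 1.5 times the main share under all alternatives tried, at 54.9% to 78.9%, and the share of calls higher in the wing disc stayed between 37.7% (bins outside UR only, 552 against 914) and 49.9% against 46.5%. Leaving out a library gave 54.9% to 72.6% of rank bins, 24.3% to 70.9% of score bins, 51.2% to 60.5% of genes, and 19.1% to 20.4% of variant bins against 24.3%. The low score-bin shares came without wing disc replicate 1 (24.3%) and without wing disc replicate 2 (24.5%). Genes tested without flanks gave 22.5% (3766 called, 10691 in the main setting). Variant bins were 41.9% with no length limit, 14.4% in bins of 25 windows and 45.2% in bins of 100 windows. The same-quartile share moved from 29.6% to 40.1% with smoothed RT and 26.9% in fully replicated windows only. The median wing disc rawRT percentile of eUR moved from 35.5 to 44.8 at a UR threshold of -1 (102 regions), 29.4 at 2 SD (30 regions) and 11.6 with smoothed RT, and was 34.5 to 36.2 with a library left out and 35.9 over the 31 regions away from the centromeres. The causes were not tested. With the replicate number as a block 73.8% of rank bins, 54.3% of score bins, 64.2% of genes and 24.1% of variant bins were called. The numbers are only names here, as same-numbered libraries deviated together with r = 0.016 in rank and 0.146 in rawRT across bins. Of 51 named genes only SuUR reversed, with smoothed RT (18.9). Over the alternatives run on named genes, 363 values kept call and direction, 4 uncalled ones changed sign (of dpp, wg and Eip75B), 37 lost the call, 22 of them without flanks, and 3 gained it (wg, dpp and Eip75B with smoothed RT), and no named domain changed direction. A crossed block gave 73.3% of rank bins. It, the removal of the GC trend, the restriction to bins outside UR and the split of eUR by pericentric bands were chosen after seeing the data.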
